A study of Mus musculus with 8 samples.

Results

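The G1 cyclins and CDK inhibitors set whether a cell passes from G1 into S phase. They were taken as 10 genes by symbol out of 23337 gene symbols, by a rule that holds no measured value: the D-type cyclins Ccnd1, Ccnd2 and Ccnd3, the E-type cyclins Ccne1 and Ccne2, the Cip/Kip inhibitors Cdkn1a, Cdkn1b and Cdkn1c, and the inhibitors of the Ink4 locus Cdkn2a and Cdkn2b. These genes were nevertheless chosen as a group with earlier results of these data known. RNA sequencing of a cell line of FVB mouse background, murine oviductal epithelial (MOE) cells, gave their levels, the oviduct being the mouse equivalent of the human fallopian tube. Cells collected with trypsin at confluence were plated on 2D collagen (4 libraries) or on 3D collagen gels (4 libraries) and kept for 6 h in MOE medium that lacked EGF, so both groups share the line, the passage through trypsin and the absence of EGF. The study's title concerns ovarian colonization by cancer of fallopian tube origin, and the comparison asks which transcripts differ between the 2 forms of collagen.

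D-type cyclins are made in response to growth factors and adhesion and bind Cdk4 and Cdk6, which phosphorylate the retinoblastoma protein. This frees E2F factors, which transcribe the E-type cyclins and the genes of DNA replication, and E-type cyclins with Cdk2 complete the step. Cip/Kip proteins restrain Cdk2 complexes and Ink4 proteins bind Cdk4 and Cdk6 directly, while the second product of Cdkn2a, p19Arf, acts on the p53 pathway through Mdm2.

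Depth ranged from 15692699 to 25862036 recovered reads per library, with 14064 to 14598 genes detected. The values are counts divided by 1 size factor per library, called normalized counts. The labels do not state whether replicates were separate cultures, and p-values therefore measure only how far these libraries spread, which may be technical. Among markers of the labelled cell type, the keratins Krt7, Krt8, Krt18 and Krt19 and the Mullerian factor Pax8 were abundant (at least 441 CPM, the reads of a gene scaled to a common library total, in every library). The epithelial adhesion genes Epcam and Cdh1 reached at most 1.26 and 5.23 and the oviductal glycoprotein Ovgp1 at most 1.37, so these 3 markers were near 0 in both groups. Foxj1, a factor of ciliated cells, lay at 52.4 to 77.9 CPM on 2D and 8.08 to 61.0 CPM on 3D collagen. Summed markers of fibroblasts (5 genes) reached at most 15.8 CPM and those of endothelium (4 genes, mostly Kdr) at most 38.9 CPM. The sum of 4 leukocyte markers was 7.07 to 18.4 CPM on 2D and 18.7 to 30.2 CPM on 3D collagen, nearly all of it Cd68, while Ptprc, the common leukocyte antigen, stayed at or below 0.210 CPM. Its part in the results was not tested.

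The libraries numbered 4 in both groups differed from the others in genes of DNA replication, and within each group both E-type cyclins were also highest there. Of 18 genes of S phase that E2F is known to transcribe, all 18 were highest in replicate 4 among the 2D libraries and again among the 3D libraries. Over all 11820 genes tested, 17.8% were highest in replicate 4 in both groups. The median of the 18 genes, as a log2 deviation from the mean of all 8 libraries, was 1.55 in 2D replicate 4 and 1.25 in 3D replicate 4. It lay between −0.92 and −0.21 in the other 6 libraries. In bulk RNA, more cells in S phase and more RNA per cell cannot be told apart.

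Of the 10 members, 9 were abundant enough to be tested and limma called none between 2D and 3D collagen (Benjamini-Hochberg adjusted p under 0.05 over all 11820 genes, of which 5.72% passed, 2.33% higher and 3.39% lower on 3D). Over all genes 275 were higher and 401 lower, a split that turned to 499 higher and 317 lower when scaled by library size alone. Closest to the threshold among the members were Cdkn2b, which was higher in every 3D library than in any 2D library, and Ccnd3, which was lower in every 3D library than in any 2D library. For these 2 of 9 members the unadjusted limma p was under 0.05, as for 24.2% of all genes tested (11.7% higher and 12.6% lower). Groups that did not overlap were seen for 2 of 9 members (22.2%) and for 18.4% of all genes tested (8.05% higher and 10.4% lower), so the members' share was near that of all genes. On the recovered reads edgeR called 5.75% of all genes and 0 members, and DESeq2 called 12.0% and 2 members, Ccnd3 lower and Cdkn2b higher. Ccne1 was given no p by DESeq2 and so could not be called. With trends in GC content removed limma called 9.28% of all genes and the same 2 members. With library size as the only scaling, limma (6.89% of all genes) and edgeR (6.81%) called only Cdkn2b among the members. Without both libraries numbered 4, limma called 3.78% and edgeR 4.16% of all genes, and neither called a member. With the replicate number as a block, limma called 663 higher and 742 lower genes, with 1 higher member (Cdkn2b) and 2 lower (Ccnd3 and Ccne1). The same members were called by edgeR with the block. The log2 fold changes of 3D over 2D were below 0 for 5 members and above 0 for 4, with a median of −0.17 beside 0.02 for all genes.

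**Figure D1:**
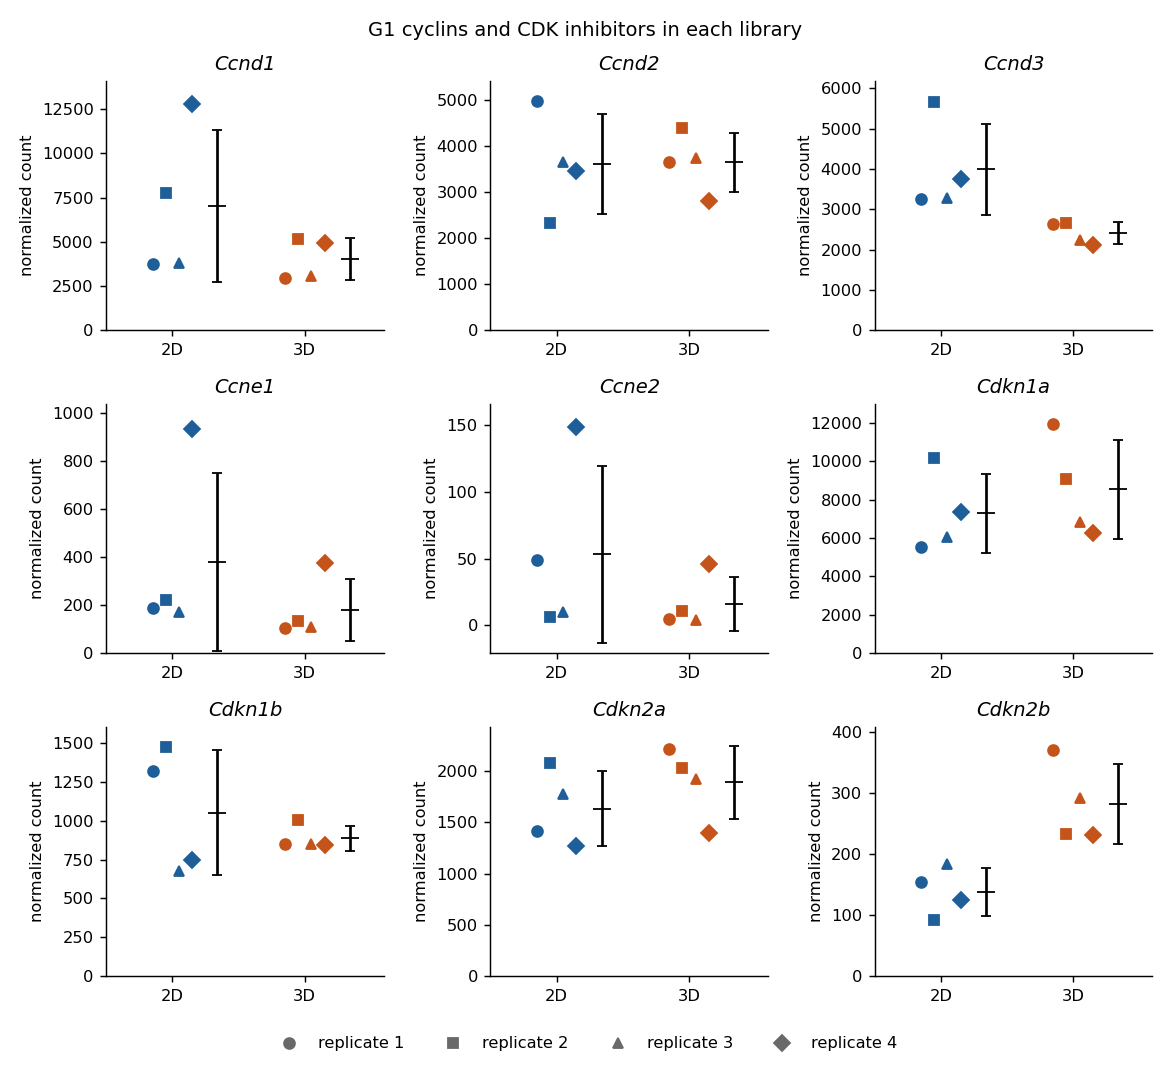
Normalized counts (vertical axes) of the 9 tested members in the 4 libraries of cells on 2D collagen (blue) and the 4 on 3D collagen (orange). The marker shape gives the replicate number, and the bar and whiskers give the mean ± SD of each group. The 2 groups are separate only for Ccnd3 and Cdkn2b, and replicate 4 (diamonds) is the highest library of its group for Ccne1 and Ccne2 in both groups.

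RefSeq (GRCm38.p6, the mm10 assembly) gave sequence before a transcription start for 6 of the 10 members and 9 starts. The 250 bases before the start are shown for the members whose groups did not overlap, Ccnd3 (both starts) and Cdkn2b, and for Ccne1, whose level separated the libraries numbered 4 from the rest. Capitals mark each match to the GC box GGGCGG, the site of Sp family factors, on either strand. The windows are chr17:47504801-47505050 (plus strand) and chr17:47593217-47593466 (plus strand) for Ccnd3, chr4:89311033-89311282 (minus strand) for Cdkn2b and chr7:38107491-38107740 (minus strand) for Ccne1.
Ccnd3 start 1: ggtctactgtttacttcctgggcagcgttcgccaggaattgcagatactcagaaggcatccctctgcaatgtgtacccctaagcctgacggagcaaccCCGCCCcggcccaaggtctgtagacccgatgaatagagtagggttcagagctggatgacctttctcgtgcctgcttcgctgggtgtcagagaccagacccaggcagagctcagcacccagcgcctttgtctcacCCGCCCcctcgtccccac
Ccnd3 start 2: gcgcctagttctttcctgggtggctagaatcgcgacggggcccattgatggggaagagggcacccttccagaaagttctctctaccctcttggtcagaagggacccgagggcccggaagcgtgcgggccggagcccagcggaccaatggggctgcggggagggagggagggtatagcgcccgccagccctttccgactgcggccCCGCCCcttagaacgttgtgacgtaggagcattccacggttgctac
Cdkn2b: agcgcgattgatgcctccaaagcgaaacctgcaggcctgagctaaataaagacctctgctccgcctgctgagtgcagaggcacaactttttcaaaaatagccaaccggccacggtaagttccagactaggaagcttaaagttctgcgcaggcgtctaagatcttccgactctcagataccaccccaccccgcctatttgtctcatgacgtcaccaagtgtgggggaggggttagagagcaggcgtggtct
Ccne1: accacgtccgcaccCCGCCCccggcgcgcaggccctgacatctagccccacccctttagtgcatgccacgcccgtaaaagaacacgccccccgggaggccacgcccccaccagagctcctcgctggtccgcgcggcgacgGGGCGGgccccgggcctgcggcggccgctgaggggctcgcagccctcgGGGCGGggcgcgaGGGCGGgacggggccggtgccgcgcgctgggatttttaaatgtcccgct

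The GC box was matched 4 times before Ccne1, 2 times and 1 time before the starts of Ccnd3 and 0 times before Cdkn2b, and 32.7% of all 32851 promoter windows of this length hold at least 1 match. The GC content of the windows was 76% for Ccne1, 59.6% and 64.8% for Ccnd3 and 53.6% for Cdkn2b. The E2F site was searched on both strands as TTCCCGC, as TTCGCGC, as TTGCCGC and as TTGGCGC, any of which can share bases with a GC box, and 7.89% of all windows hold one. Of the members' 9 windows 1 did, that before the first start of Cdkn2a, while the windows printed above hold none of these letters. The E-box CACGTG, bound by Myc among others, was in none of the 9 windows and in 6.02% of all windows. Windows for Ccnd1, Ccnd2, Ccne2 and Cdkn1c were not used here. These matches describe letters in a window and not bound sites.

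Among the D-type cyclins, Ccnd3 (chromosome 17, 47505051 to 47599691, mm10) read 3264, 5651, 3268 and 3761 normalized counts in 2D replicates 1 to 4. In 3D replicates 1 to 4 it read 2635, 2669, 2247 and 2119. The lowest 2D library was above the highest 3D library. The wider spread of the 2D libraries came from 2D replicate 2 (5651) and was not tested. The other 2D libraries ran from 3264 to 3761 and the 3D libraries from 2119 to 2669. The means were 3986 ± 1134 and 2418 ± 276 (SD, n = 4 per group). The log2 fold change on 3D over 2D collagen was −0.69 (SE 0.20, 95% interval −1.13 to −0.25, limma adjusted p = 0.0730), and adjusted p ranged from 0.0226 to 0.205 (limma, edgeR or DESeq2) over the 23 alternatives tried. It passed the threshold with DESeq2 (adjusted p = 0.0239) and after trends with GC content were removed (limma adjusted p = 0.0397, log2 fold change −0.48). It also passed with the replicate number as a block, in limma (adjusted p = 0.0354) and in edgeR (adjusted p = 0.0427).

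Ccnd1 (chromosome 7, 144929931 to 144939925), the D-type cyclin most often linked to growth factor and adhesion signals, read 3760.0, 7740.4, 3811 and 12788 normalized counts in the 2D libraries. Its 3D values were 2976, 5139.8, 3057 and 4951. Replicates 2 and 4 were the higher libraries on both substrates, and the groups overlapped. The means were 7025 ± 4271 and 4031 ± 1174 (SD, n = 4), a log2 fold change of −0.65 with a 95% interval from −1.56 to 0.25 (limma adjusted p = 0.356). Over fits that left out 1 library the log2 fold change ran from −0.89 (without 2D replicate 1) to −0.30 (without 2D replicate 4). An antisense gene model, LTO1, overlaps 23.4% of the exonic bases of Ccnd1, and since the strand setting of the counting is not given, reads of the shared bases cannot be told apart. The same holds for smaller antisense overlaps with Ccnd3 (Bysl, 4.11%), Cdkn1a (AC167363.2, 7.68%) and Ccnd2 (Gm43126, 3.95%, and 9330179D12Rik, 3.91%).

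Ccnd2 (chromosome 6, 127125162 to 127152193) read 4964, 2324, 3638 and 3461 normalized counts in the 2D libraries and 3656, 4375, 3725 and 2805 in the 3D libraries. All 3D values lay within the range of the 2D values. The log2 fold change was 0.05 (95% interval −0.48 to 0.58, limma adjusted p = 0.919), and its sign turned without 2D replicate 2 (−0.14) or 3D replicate 2 (−0.04) and after GC trends were removed (−0.07).

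Levels of different genes were set side by side per length, as RPKM, the CPM divided by the length in kilobases of the longest coding transcript. RPKM is scaled by library size alone, which moved the median log2 fold change of all genes from 0.02 to 0.19. RPKM on 2D and 3D collagen therefore does not give the same contrast as the fold changes. On this scale the means on 2D collagen were 91.8 ± 59.8 for Ccnd1, 90.4 ± 16.7 for Ccnd3 and 28.2 ± 10.3 for Ccnd2 (mean ± SD, n = 4). Ccnd3 was above Ccnd1 in 2D replicates 1 to 3 (80.3, 113 and 75.6 against 52.3, 87.5 and 49.8 RPKM) and below it only in 2D replicate 4 (92.6 against 178). On 3D collagen the levels were 59.7 ± 19.5 for Ccnd1, 62.5 ± 4.00 for Ccnd3 and 31.4 ± 4.79 for Ccnd2. Of the summed level of the 3 D-type cyclins, Ccnd1 made up 30.1% to 59.5% in the 2D libraries and 30.4% to 47.8% in the 3D libraries, so its share overlapped between the groups. The place of Ccnd3 rests on the length used: with all annotated exonic bases (8775, against 2113 in the longest coding transcript) its level was 21.8 ± 4.02 on 2D collagen and 15.1 ± 0.964 on 3D collagen, under Ccnd1 in every library.

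Both E-type cyclins had their highest value in replicate 4 on either substrate. Ccne1 (chromosome 7, 38097984 to 38107534) read 189, 223, 173 and 934 normalized counts in the 2D libraries and 104, 136, 108 and 375 in the 3D libraries. Replicate 4 was 4.79 times the mean of the other 2D libraries and 3.23 times the mean of the other 3D libraries. Among replicates 1 to 3 every 3D value of Ccne1 was below every 2D value, a subset chosen after its values were seen (195 ± 25.7 and 116 ± 17.4, SD, n = 3). Over all 8 libraries the groups overlapped, since 3D replicate 4 read higher than 2D replicates 1 to 3.

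Ccne1 had a log2 fold change of −0.89 (SE 0.60, 95% interval −2.24 to 0.46, limma adjusted p = 0.403). Without both libraries numbered 4 it was −0.75 (limma adjusted p = 0.134). Leaving out only 2D replicate 4 brought it to −0.32 and leaving out only 3D replicate 4 to −1.31, and neither passed (limma adjusted p = 0.683 and 0.219). With the replicate number as a block Ccne1 passed in limma (adjusted p = 0.0343) and in edgeR (adjusted p = 0.0382).

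Ccne2 (chromosome 4, 11191351 to 11204779), the second E-type cyclin, was the least abundant member with reads. It read 48.7, 5.97, 10.3 and 148 normalized counts in the 2D libraries and 4.53, 10.5, 3.73 and 45.7 in the 3D libraries. These rest on 50, 5, 13 and 121 reads and on 4, 12, 4 and 50 reads, so the low libraries are imprecise. As for Ccne1, replicate 4 was the highest library on both substrates, at 6.85 and 7.32 times the mean of the other 3. Unlike Ccne1, 2D replicate 1 of Ccne2 (48.7) was above 3D replicate 4 (45.7). Its log2 fold change was −1.34 with a 95% interval from −3.70 to 1.02 (limma adjusted p = 0.470). It was −0.53 without 2D replicate 4, −2.045 without 3D replicate 4 and −1.23 without both (limma). Exons of Ints8 on the other strand cover 17.4% of its exonic bases. Per length Ccne1 made up 85.4% to 98.3% of the E-type level in the 2D libraries and 92.5% to 97.8% in the 3D libraries.

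**Figure D2:**
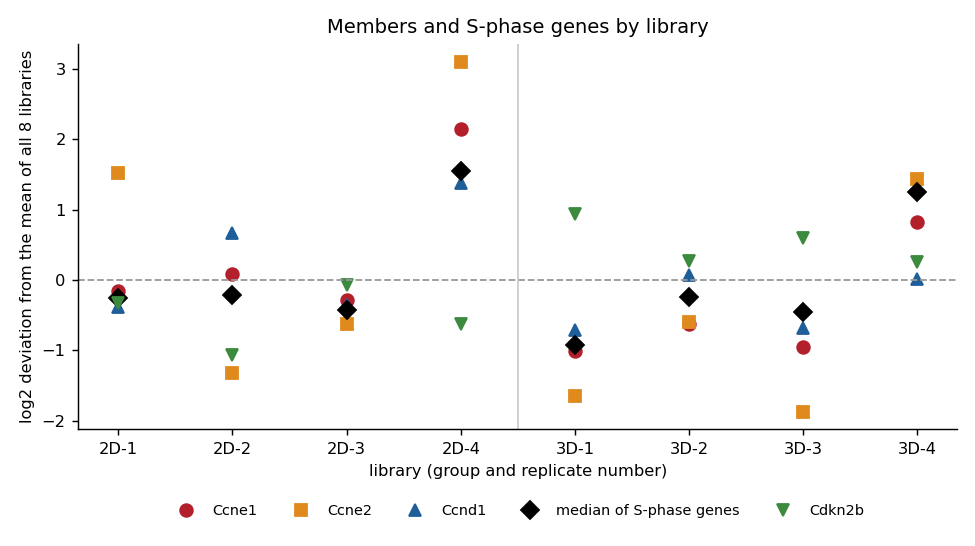
Log2 deviation from the mean of all 8 libraries (vertical axis) for Ccne1, Ccne2, Ccnd1, Cdkn2b and the median of 18 S-phase genes, by library (horizontal axis, group and replicate number). In 2D replicate 4 and 3D replicate 4 the S-phase median is 1.55 and 1.25 and both E-type cyclins are above 0. Ccne2 is also above 0 in 2D replicate 1 (1.52, where the S-phase median is −0.26) and Ccne1 in 2D replicate 2 (0.08). Cdkn2b is below 0 in all 2D libraries and above 0 in all 3D libraries.

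Among the Cip/Kip inhibitors, Cdkn1a (chromosome 17, 29090976 to 29100727) encodes p21, which p53 and other stress and differentiation signals induce. It read 5551, 10156, 6065 and 7362 normalized counts in the 2D libraries and 11911, 9098, 6815 and 6289 in the 3D libraries. The groups overlapped throughout, and the highest library of each group was 2D replicate 2 and 3D replicate 1. Its log2 fold change was 0.22 (95% interval −0.35 to 0.80, limma adjusted p = 0.641) and it was 0.04 without 3D replicate 1. Per length Cdkn1a was the most abundant member, at 168 ± 32.8 on 2D and 222 ± 50.8 on 3D collagen (RPKM, mean ± SD, n = 4).

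Cdkn1b (chromosome 6, 134920401 to 134925513) encodes p27, an inhibitor that accumulates in quiescent cells largely through protein stability. Its 2D values were 1316, 1470.4, 674 and 744 normalized counts and its 3D values 852, 1007, 847 and 842. The 2D libraries formed a high and a low pair, and all 3D libraries lay between them. Over all libraries the log2 fold change was −0.17 (95% interval −0.75 to 0.42, limma adjusted p = 0.741), and its sign turned with library size as the only scaling (0.0070) and without 2D replicate 2 (0.02). The coefficient of variation was 38.2% on 2D and 9.01% on 3D collagen, a difference that was not tested.

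Cdkn1c (chromosome 7, 143458339 to 143461050), which encodes p57 and lies in an imprinted cluster, had 0 reads in all 8 libraries. A count of 0 allows up to 3 reads, or 0.116 to 0.191 CPM depending on the library's depth (counting error only). No fold change can be given. Overlapping exons of the antisense model Gm44732 cover 30.7% of its exonic bases.

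The Ink4 locus on chromosome 4 holds Cdkn2a and Cdkn2b side by side on the minus strand. Cdkn2b (89306299 to 89311039) encodes p15, an inhibitor of Cdk4 and Cdk6 known as a target of TGF-beta signalling. It read 154, 92.0, 183 and 125 normalized counts in the 2D libraries and 371, 233, 292 and 231 in the 3D libraries. Every 3D library was above every 2D library. The means were 139 ± 39.2 and 282 ± 66.0 (SD, n = 4), and the log2 fold change was 1.04 (SE 0.27, 95% interval 0.42 to 1.65, limma adjusted p = 0.0584).

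Cdkn2b passed the threshold with DESeq2 (adjusted p = 0.00654), after GC trends were removed (limma adjusted p = 0.0365), and with library size as the only scaling in limma (adjusted p = 0.0445) and in edgeR (adjusted p = 0.0482). It also passed with the replicate number as a block, in limma (adjusted p = 0.0236) and in edgeR (adjusted p = 0.0237). Its adjusted p ranged from 0.00654 to 0.176 over the 23 alternatives (limma, edgeR or DESeq2), with log2 fold changes from 0.86 to 1.22. For single genes by themselves, an exact two-sided permutation test over the 70 assignments of the libraries gave p = 0.0286 for both Cdkn2b and Ccnd3, the smallest this design allows. Any gene whose groups do not overlap has this p, so it only restates that feature, seen in 18.4% of all genes tested. The other 7 members with reads had an exact permutation p from 0.257 to 0.857.

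Cdkn2a (89274471 to 89294653) encodes p16 and p19Arf from alternative first exons, which the deposited values do not separate. It read 1414, 2079.6, 1771 and 1271 normalized counts in the 2D libraries and 2218, 2029, 1919 and 1394 in the 3D libraries. The groups overlapped, and replicate 4 was the lowest library on both substrates. Its log2 fold change was 0.22 (95% interval −0.24 to 0.68, limma adjusted p = 0.563). Over the 23 alternatives it ran from 0.10 to 0.44, with adjusted p (limma, edgeR or DESeq2) from 0.0387 to 0.784. Cdkn2a passed only in limma with both the replicate block and GC trends removed. Per length Cdkn2a was at 87.7 ± 11.8 on 2D and 115 ± 15.1 on 3D collagen, while Cdkn2b was at 4.92 ± 1.59 and 11.0 ± 1.96 (RPKM, mean ± SD, n = 4).

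**Figure D3:**
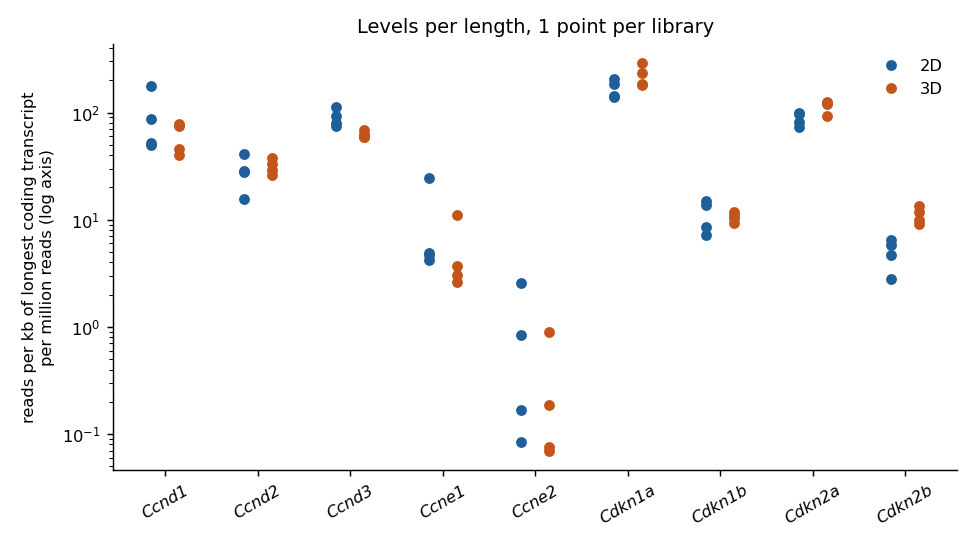
Levels per length (vertical log axis, RPKM over the longest coding transcript) of the 9 members with reads, 1 point per library, on 2D (blue) and 3D collagen (orange). Cdkn1a is highest at 168 and 222 on average, Ccne2 lowest, and Cdkn1c, at 0 reads, is left out.

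In the order of levels per length on 2D collagen, Cdkn1a came first, followed by Ccnd1, Ccnd3 and Cdkn2a, whose library values overlapped; 2D replicate 4 of Ccnd1 (178 RPKM) also lay within the range of Cdkn1a (139 to 206). Ccnd2 came next, then Cdkn1b (11.1 ± 3.82), Ccne1 (9.54 ± 9.83), Cdkn2b and Ccne2 (0.915 ± 1.15). The place of Ccne1 above Cdkn2b rests on 2D replicate 4 (24.3 RPKM), since its values in replicates 1 to 3 (4.91, 4.72 and 4.23) lay within the range of Cdkn2b there (2.80 to 6.45). On 3D collagen Cdkn2a stood second, its lowest library (92.5 RPKM) above the highest of any D-type cyclin (78.6), and Cdkn2b (11.0 ± 1.96) and Cdkn1b (10.7 ± 1.06) did not differ beyond their spread. Ccne1 was at 5.12 ± 4.04 and Ccne2 at 0.309 ± 0.400 there.

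**Figure D4:**
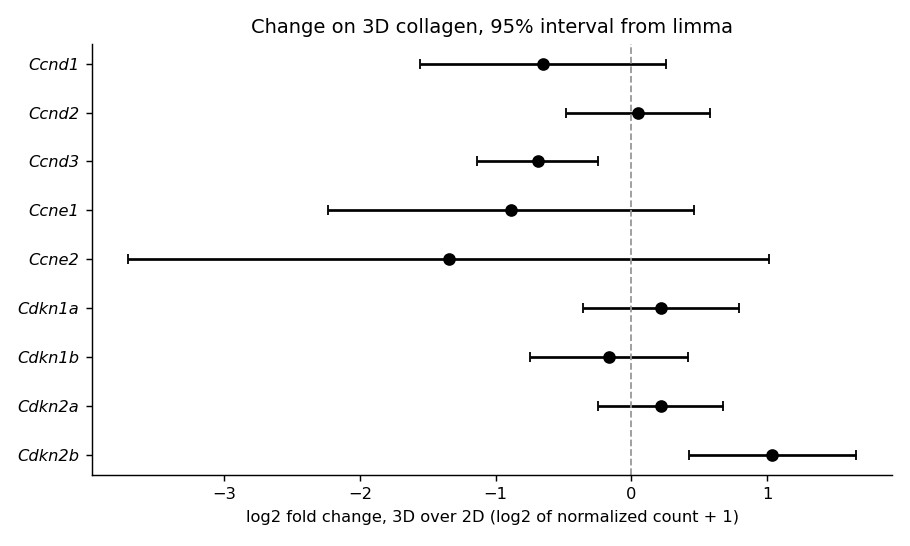
Log2 fold change of 3D over 2D collagen (horizontal axis, on log2 of the normalized count + 1) for the 9 tested members, with 95% intervals from limma. The intervals of Ccnd3 (−1.13 to −0.25) and Cdkn2b (0.42 to 1.65) do not include 0, without adjustment over genes, and those of the E-type cyclins are the widest.

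Around the members, the G1 kinases and their partners held 1 lower gene and 0 higher among 13 tested with limma and with edgeR. DESeq2 called 1 lower and 1 higher. Over all genes limma called 5.72%, edgeR 5.75% and DESeq2 12.0%. The gene of this list called with limma was the phosphatase Cdc25a, which activates Cdk2. Cdc25a read 571, 620, 528 and 865 normalized counts in the 2D libraries and 308, 352, 292 and 430 in the 3D libraries. Every 3D value was below every 2D value. Cdc25a fell by 0.89 on the log2 scale (SE 0.21, limma adjusted p = 0.0389). Its call was lost on leaving out any 1 library other than 3D replicate 4 (adjusted p in limma 0.0542 to 0.139) with library size as the only scaling (limma adjusted p = 0.110) and with no filter beyond 1 read (limma adjusted p = 0.0509), and it held without both libraries numbered 4 (limma adjusted p = 0.0442). The partner kinases, named after their values were seen, did not pass. Cdk4 read 25563 ± 6309 and 20169 ± 3537 normalized counts on 2D and 3D collagen, Cdk6 328 ± 72.2 and 225 ± 33.8, and Cdk2 791 ± 258 and 645 ± 114 (mean ± SD, n = 4), with limma adjusted p from 0.188 to 0.529. The list's median log2 fold change was −0.24 beside 0.02 for all genes.

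Of 13 pocket protein and E2F genes none passed with limma, edgeR or DESeq2 in fits without a replicate block. At an unadjusted limma p under 0.05, 1 was higher and 1 lower, beside 11.7% and 12.6% of all genes. The list's genes with the highest mean normalized count over all 8 libraries, not per length, were E2f4, a factor of repressive complexes (2022 ± 409 on 2D and 1442 ± 152 on 3D collagen), and the E2F partner Tfdp1 (1033 ± 276 and 758 ± 132 normalized counts, mean ± SD, n = 4). The median log2 fold change of the list was −0.18.

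Of the 18 S-phase genes none passed over all 8 libraries with limma, edgeR or DESeq2 in fits without a replicate block. At an unadjusted limma p under 0.05, 1 was lower, beside 12.6% of all genes. The list's median log2 fold change was −0.32. It was 0.23 without 2D replicate 4, −0.62 without 3D replicate 4 and −0.25 without both (limma). By mean normalized count over all 8 libraries the highest were the replication helicase subunits Mcm5 (4687 ± 3965 and 2499.9 ± 2274 on 2D and 3D collagen) and Mcm2 (4081 ± 2004 and 3029 ± 1234 normalized counts, mean ± SD, n = 4). Mcm5 read 10508 in 2D replicate 4, 5869 in 3D replicate 4 and at most 3890.5 in the other 6 libraries. Without both libraries numbered 4, limma called 3.78% of all genes. Of the list 1 gene was lower there, the replication licensing factor Cdc6, named after its value was seen. It read 252, 214 and 159 in 2D replicates 1 to 3 and 26.0, 62.0 and 60.6 in 3D replicates 1 to 3, and fell by 2.12 on the log2 scale among these 6 libraries (adjusted p = 0.0303 in limma).

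Other cyclins held 1 higher gene and 0 lower among 15 tested with limma and with edgeR. With DESeq2, 1 was higher and 2 lower among 16. After GC trends were removed limma called 1 higher and 1 lower. Over all genes limma called 5.72%, edgeR 5.75%, DESeq2 12.0% and limma with GC trends removed 9.28%. The cyclin of this list called with limma was Ccng2, an atypical cyclin linked to cell cycle arrest. Ccng2 read 540, 323, 504 and 313 normalized counts in the 2D libraries and 1068, 850, 841 and 822 in the 3D libraries, and it rose by 1.13 on the log2 scale (adjusted p = 0.0221 in limma). Among 25 regulators known to act on the members, 1 was lower and 1 higher with limma and with edgeR. DESeq2 called 1 lower and 2 higher. The same shares of all genes stand beside these counts. The list's median log2 fold change was 0.32. Myc, a growth-promoting transcription factor that represses Cdkn2b and Cdkn1a in other settings, read 580, 938, 724 and 961 normalized counts in the 2D libraries and 352, 448, 339.6 and 346 in the 3D libraries. It fell by 1.09 on the log2 scale (adjusted p = 0.0192 in limma). Klf4, a factor known to induce Cdkn1a, was higher, at 201 ± 51.3 normalized counts on 2D and 378 ± 40.6 on 3D collagen (SD, n = 4, log2 fold change 0.94, adjusted p = 0.0440 in limma). Without both libraries numbered 4 limma adjusted p was 0.0561 for Ccng2, 0.0624 for Myc and 0.105 for Klf4, and with no filter beyond 1 read it was 0.0596 for Klf4. Leaving out 1 library also ended the call of Klf4 for each but 2D replicate 3, that of Ccng2 for 3D replicates 1, 2 and 3 and that of Myc for 3D replicates 1 and 3 (adjusted p in limma between 0.0578 and 0.128).

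The genes whose log2 values ran most like those of Cdkn2b over the 8 libraries were Cox6c (Pearson r = 0.993), Ss18l1 (0.990), Ndufa1 (0.990), Prdx1 (0.979) and Selk (0.978), with r from 0.929 to 0.984 after each group's mean was subtracted. Those most like Ccnd1 were Mybbp1a (0.987), Rbm19 (0.975), Tigit (0.973), Snrpc (0.972) and Atpaf2 (0.964), with r from 0.953 to 0.990 after subtraction. These are the highest of the 11820 tested genes, with gene models named Gm or ending in Rik left out. All genes of a library share its depth and scaling, and the genes are given as a description only.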

How the data were processed

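Per the labels' protocols, total RNA (TRIzol, then a Qiagen kit) went into standard Illumina libraries. HTSeq 0.6.1p1 on mm10 and DESeq2 were used, per the submitters' processing notes. No source used here names the aligner, annotation, strand setting or filters. The deposited values are a normalized signal: 100% of them came out as whole multiples of 1 read within a tolerance of 0.001 reads, and what 1 read was worth followed DESeq2-type size factors (largest difference 3.4e-09), which makes them counts over 1 size factor per library.

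Genes that reached a normalized count of 10 in 4 or more libraries were tested with limma 3.58.1 (R 4.3.3; trended, robust) on log2(normalized count + 1), without covariates, adjusted over all 11820 genes. This scale understates the change of low genes. edgeR 4.0.16 (680 genes called) and DESeq2 1.42.0 were run on the recovered reads. In simulated data for this comparison (11845 genes) limma recovered 28% of genes changed 2-fold and 97% of those changed 4-fold. The simulation gave every gene 1 common dispersion (0.107), changed only genes above a minimum mean and held no difference between replicate numbers. These shares therefore need not hold for Ccne1 and Ccne2, which were far higher in replicate 4. Positions, lengths and transcript GC content came from GENCODE M21 on mm10. GC trends were removed by a lowess curve per library (span 30%).

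The members follow a rule by symbol, but that group of genes and the lists were chosen with earlier results of these data known. Named genes were all members, called genes of each list (at most 6 by adjusted p, otherwise the 2 most abundant) and the 5 genes most correlated with Ccnd1 and with the member of smallest p. Alternatives were other scalings, pseudocounts, filters and tests, the replicate number as a block, GC correction and leaving out each library. Leaving out both libraries numbered 4, edgeR with the block and edgeR with library size were added after the data were seen.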

Additional observations from a re-analysis of the deposited data

Results flagged for a closer look

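In 4 of the 18 groups of 4 libraries in which a member had reads, 1 library lay far from the other 3. Its gap to the nearest of them, as a share of the group's range, was above Dixon's 95% critical value. For normally distributed values chance gives this in about 1 in 20 groups. The rule was applied to normalized counts and not to their logs, so that rate need not hold here. On a log2 scale the high values of Ccne1 and Ccne2 stand out less. Ccne1 reached 934 normalized counts in 2D replicate 4 and 375 in 3D replicate 4. Ccne2 reached 45.7 in 3D replicate 4. Cdkn1b reached 1007 in 3D replicate 2, where the group's whole range began at 842. The first 3 fall in the libraries in which all 18 S-phase genes were the highest of their group, and the part of those libraries in the values was not tested beyond the values without them given above.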

How the results depend on the processing

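The 9 members with reads kept their direction in every alternative that gave a value, except Ccnd2 and Cdkn1b. The log2 fold change of Ccnd2 turned to −0.072 with GC trends removed (with and without the replicate block) and ran from −0.14 (without 2D replicate 2) to 0.22 over fits that left out 1 library, turning to −0.04 without 3D replicate 2. That of Cdkn1b turned to 0.0070 with library size as the only scaling and ran from −0.35 to 0.022 (without 2D replicate 2) over fits that left out 1 library. Members higher and lower numbered 0 and 0 in limma, with TMM factors, both other pseudocounts and both other filters, in edgeR with TMM factors and in each fit that left out 1 library or both libraries numbered 4. They numbered 1 and 0 with library size (limma and edgeR), 1 and 1 with DESeq2 and with GC trends removed. Ccne2 has no value under the filter of 50 or in edgeR without the libraries numbered 4. DESeq2 gave Ccne1 a log2 fold change (−1.07) but no p and no adjusted p. Higher genes over all genes tested numbered 275 in limma, 499 with library size (481 in edgeR), 692 with DESeq2, 482 with GC trends removed, and 171 (limma) and 183 (edgeR) without both libraries numbered 4. Lower genes numbered 401 in limma, 317 with library size, 851 with DESeq2 and 605 with GC trends removed. Leaving out 1 library gave 44 to 267 higher and 104 to 370 lower genes. Library size moved the median of all genes to 0.19 (log2). The cause of these moves was not tested.

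Libraries of the same number did not all deviate together. The correlation of deviations from the group means ran from −0.17 (replicate 1) to 0.81 (replicate 4). Of 8 libraries, 5 correlated best with their own number. These values do not settle whether the numbers are pairs, and the main fit was planned without a block. With the replicate number as a block, limma called 663 higher and 742 lower genes and edgeR 723 and 644, with 1 higher and 2 lower members in each (Cdkn2b, Ccnd3 and Ccne1). With the block and GC trends removed 997 and 1078 genes passed, and 2 higher and 3 lower members, Cdkn2a and Ccne2 besides. Of the 18 S-phase genes 3 were lower with the block in limma, in edgeR and in limma with GC trends removed, and of the 13 pocket protein and E2F genes 1, 0 and 2. Depth limits Ccne2, at 4 to 13 reads in 5 libraries.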
